A study of Urocitellus parryii with 3 samples.

Results

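The miR-17-92 and miR-106b-25 clusters are related groups of miRNA genes, and 8 of their mature miRNAs were followed through 3 liver small-RNA libraries of a hibernating rodent, the arctic ground squirrel (Urocitellus parryii). The members were miR-17-5p, miR-18a-5p, miR-20a-5p, miR-19b-3p and miR-92a-3p of miR-17-92, and miR-106b-5p, miR-93-5p and miR-25-3p of miR-106b-25. The 18-base start of a member was the most abundant one in these reads with its known first 8 bases on the cluster's scaffold and strand. A read was taken for the member when its first 18 bases equalled that start, and each distinct read was counted once per library. This gave 864 of the 576915 distinct reads in the deposited table, or 1849 reads in early arousal, 2063 in late torpor and 1523 in post-reproduction. They made up 0.0329%, 0.0352% and 0.0271% of the placed reads of these libraries.

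The groups were early arousal (hibernators early in their return from torpor), late torpor (hibernators late in a torpor bout) and post-reproduction (warm summer animals, the non-hibernating control). RNA of 4 early arousal, 4 late torpor and 6 post-reproduction animals was mixed within each stage, so there was 1 library per stage and no spread between animals could be measured. The hibernators lived under 4 h of light and 20 h of dark and had passed through at least 4 torpor bouts, and the control animals lived under 16 h of light and 8 h of dark and were given isoflurane. Light cycle and anaesthesia therefore cannot be told apart from hibernation in any comparison with post-reproduction. The labels place sampling on day 4 of a bout without saying how this applies to early arousal. No test between stages was possible and no p-value is given. PCR copies of one molecule could not be told apart, so the intervals below may be too narrow even for counting error. All are 95% intervals for that error only, because each stage had 1 library. A ratio therefore sets one library against another, not one stage against another.

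The table held 5611673 placed reads from early arousal, 5860476 from late torpor and 5614441 from post-reproduction. miR-122-5p, the hepatocyte miRNA, supplied 72.4%, 76.3% and 74.9% of them, as in liver. miR-194-5p, another miRNA of hepatocytes, had 1, 0 and 0 reads. Levels are given in CPM, the counts per 1000000 reads, after scaling by a trimmed mean of ratios over 4317 distinct 18-base read starts. Scale factors were 1.13 for early arousal, 0.901 for late torpor and 0.984 for post-reproduction. A count of 3 reads, the limit that a count of 0 allows, corresponded to 0.484, 0.576 and 0.552 CPM in these libraries.

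Each cluster is transcribed as one long RNA that is cut into several hairpins, and each hairpin can yield a mature miRNA from its 5′ arm (-5p) and from its 3′ arm (-3p). Target mRNAs are recognised mainly through the seed, bases 2 to 8 of the miRNA. In mammals miR-17-92 is known as a growth-promoting, MYC-responsive cluster that represses cell-cycle inhibitors and pro-apoptotic genes such as Bim, and miR-106b-25 is a paralogue that lies in an intron of the DNA-replication gene MCM7 and shares its activities. Both are best known from proliferating cells, including regenerating and malignant liver, whereas most hepatocytes of an adult liver do not divide.

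The most abundant form of each member is shown because the seeds divide the 8 miRNAs into 4 families that cut across the clusters. Letters are 5′ to 3′ in DNA code as sequenced, and capitals mark the seed. The miR-17 seed was shared by 2 members of each cluster.
miR-17-5p (miR-17-92): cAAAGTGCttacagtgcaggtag
miR-20a-5p (miR-17-92): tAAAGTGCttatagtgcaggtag
miR-106b-5p (miR-106b-25): tAAAGTGCtgacagtgcagata
miR-93-5p (miR-106b-25): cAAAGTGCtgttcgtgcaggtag

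The miR-92 seed was shared by 1 member of each cluster.
miR-92a-3p (miR-17-92): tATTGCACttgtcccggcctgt
miR-25-3p (miR-106b-25): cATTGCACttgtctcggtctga

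The miR-18 and miR-19 seeds had no counterpart in miR-106b-25.
miR-18a-5p (miR-17-92): tAAGGTGCatctagtgcagat
miR-19b-3p (miR-17-92): tGTGCAAAtccatgcaaaact

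Counted from 1 at the 5′ end, miR-17-5p and miR-20a-5p differed at 2 of 23 positions, by C1T and C12T. miR-93-5p and miR-106b-5p, from one transcript, differed at 5 of 22 compared positions (C1T, T11A, T12C, C13A and G20A). The pair with the miR-92 seed, miR-92a-3p and miR-25-3p, differed at 4 of 22 (T1C, C14T, C18T and T22A). None of these differences lay within the seed. All 3 pairs are far enough apart within their first 18 bases to be counted separately.

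The genome build of the table is not given in the sources used here, and no gene annotation of its scaffolds was used. The 5 miR-17-92 members lay on the plus strand of GeneScaffold 5709 between 128596 and 129354, within 759 bases. miR-17-5p came first (128596 to 128618), followed by miR-18a-5p (128734 to 128754), miR-20a-5p (129044 to 129066), miR-19b-3p (129217 to 129237) and miR-92a-3p (129333 to 129354). The 3 miR-106b-25 members lay on the minus strand of GeneScaffold 4329 between 18838 and 19327, within 490 bases. In the direction of that strand the order was miR-106b-5p (19306 to 19327), miR-93-5p (19081 to 19103) and miR-25-3p (18838 to 18859). The miR-106b-25 and miR-17-5p reads were placed on no other scaffold. The 8 miR-18a-5p, 18 miR-19b-3p and 293 miR-92a-3p reads also matched GeneScaffold 5834, which carries the paralogous miR-106a-363 cluster, so these counts may hold reads of its copies. All 130 miR-20a-5p reads had a second match as well.

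**Figure D1:**
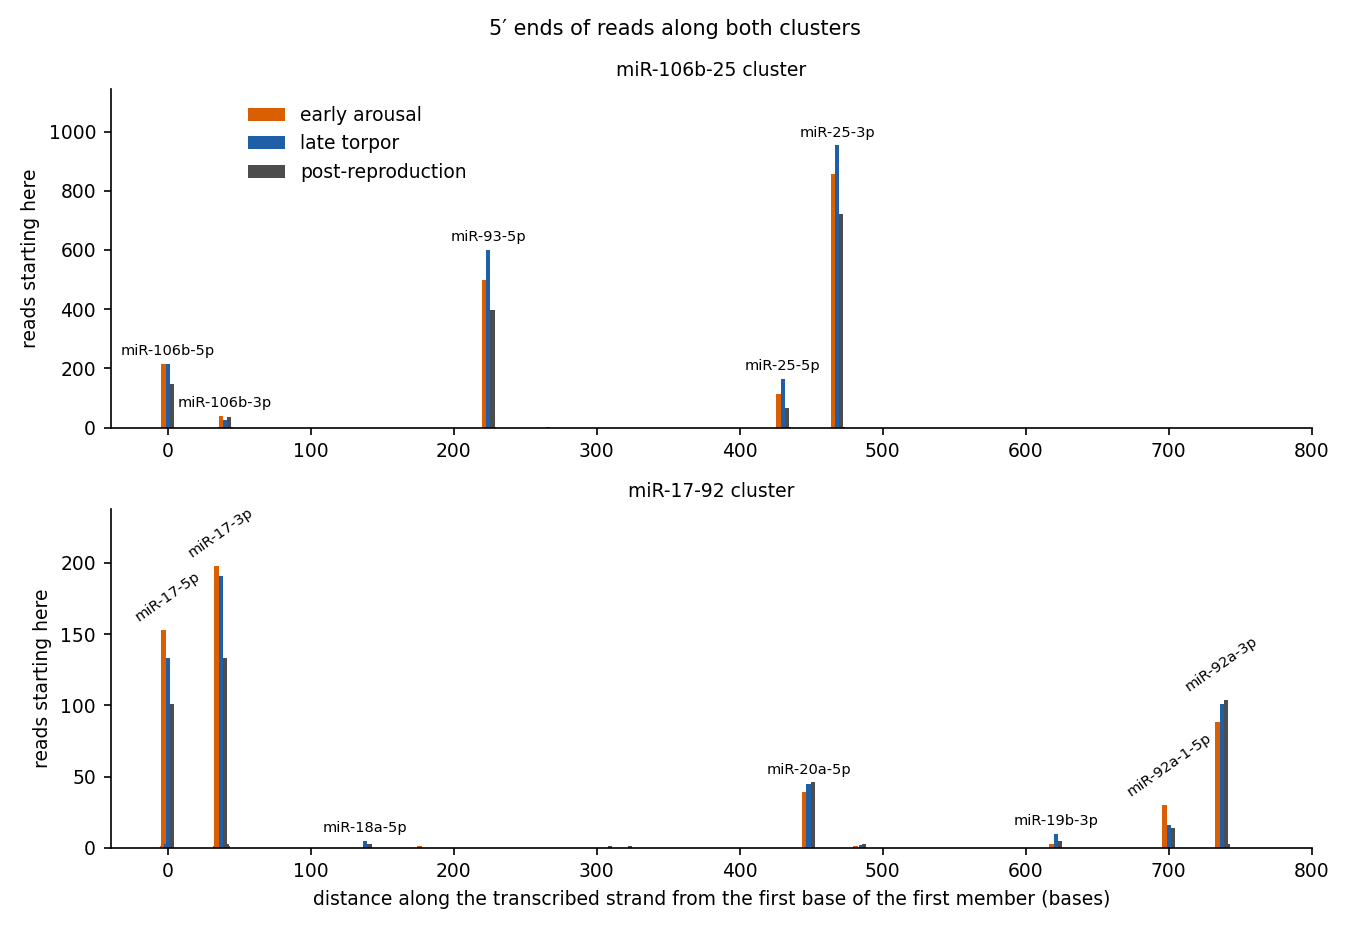
Reads starting at each base (vertical axis, unscaled read count) against the distance in bases from the first member along the transcribed strand, for miR-106b-25 above and miR-17-92 below; bars of the 3 libraries are drawn side by side. Reads formed sharp stacks at the named miRNA arms, up to 953 reads at miR-25-3p and up to 198 at miR-17-3p, with almost none between them.

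Read starts were sharply defined, as the plot of read starts along the clusters shows. Among the 6 members with at least 39 reads in every library, 93.6% to 100% of the reads within 3 bases of the position began at exactly the same base. The lowest value belonged to miR-92a-3p in early arousal, with 88 of 94 reads. Few reads at these positions thus carried a seed other than the printed one.

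The 2 clusters differed more in abundance from each other than either differed between libraries. The summed miR-106b-25 members had 1566 reads in early arousal, 1769 in late torpor and 1264 in post-reproduction, against 283, 294 and 259 reads for the miR-17-92 members in the same libraries. In scaled counts this was 253, 340 and 233 CPM for miR-106b-25 and 45.7, 56.4 and 47.7 CPM for miR-17-92. The miR-106b-25 members thus took 84.7% of the reads of both clusters in early arousal (interval 83.0 to 86.3), 85.7% in late torpor (84.2 to 87.2) and 83.0% in post-reproduction (81.0 to 84.8). These shares do not depend on scaling, but ligation efficiency differs between small RNAs, so a ratio of read counts between different miRNAs is not a ratio of molecules. Other arms of the hairpins are not in these sums. In the same order of libraries miR-17-3p had 198, 191 and 133 reads and miR-25-5p had 113, 165 and 66.

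Within miR-106b-25 the order of levels was the same in every library. miR-25-3p was highest, at 138 CPM in early arousal, 183 in late torpor and 133 in post-reproduction (855, 953 and 721 reads). miR-93-5p followed at 80.4, 115 and 72.9 CPM (498, 600 and 396 reads). miR-106b-5p was lowest at 34.4, 41.5 and 27.1 CPM (213, 216 and 147 reads). The counting intervals of neighbours in this order did not overlap in any library. miR-25-3p held 54.6%, 53.9% and 57.0% of the cluster's reads in early arousal, late torpor and post-reproduction.

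Within miR-17-92 the levels were lower and their order less settled. miR-17-5p, the first member of the transcript, had 24.7 CPM in early arousal, 25.5 in late torpor and 18.6 in post-reproduction (153, 133 and 101 reads). miR-92a-3p, the last, had 14.2, 19.4 and 19.1 CPM (88, 101 and 104 reads). miR-17-5p led in both hibernation-season libraries, with intervals separate from those of miR-92a-3p in early arousal and overlapping in late torpor, while the post-reproduction levels of the pair lay within counting error of each other. miR-20a-5p had 6.29, 8.64 and 8.47 CPM (39, 45 and 46 reads), below both without overlap of the intervals. The highest miR-17-92 members stayed below miR-106b-5p, though in post-reproduction the intervals of miR-106b-5p and miR-92a-3p overlapped.

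miR-19b-3p and miR-18a-5p were at the edge of detection. miR-19b-3p, whose seed family is held to be a main growth-promoting component of the cluster in mouse lymphoma, had 3 reads in early arousal, 10 in late torpor and 5 in post-reproduction. miR-18a-5p had 0, 5 and 3 reads. Both were close to the limit of 3 reads, and no fold is given for miR-18a-5p. miR-19a-3p, the other miR-19 of the transcript, had 0, 0 and 1 reads.

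**Figure D2:**
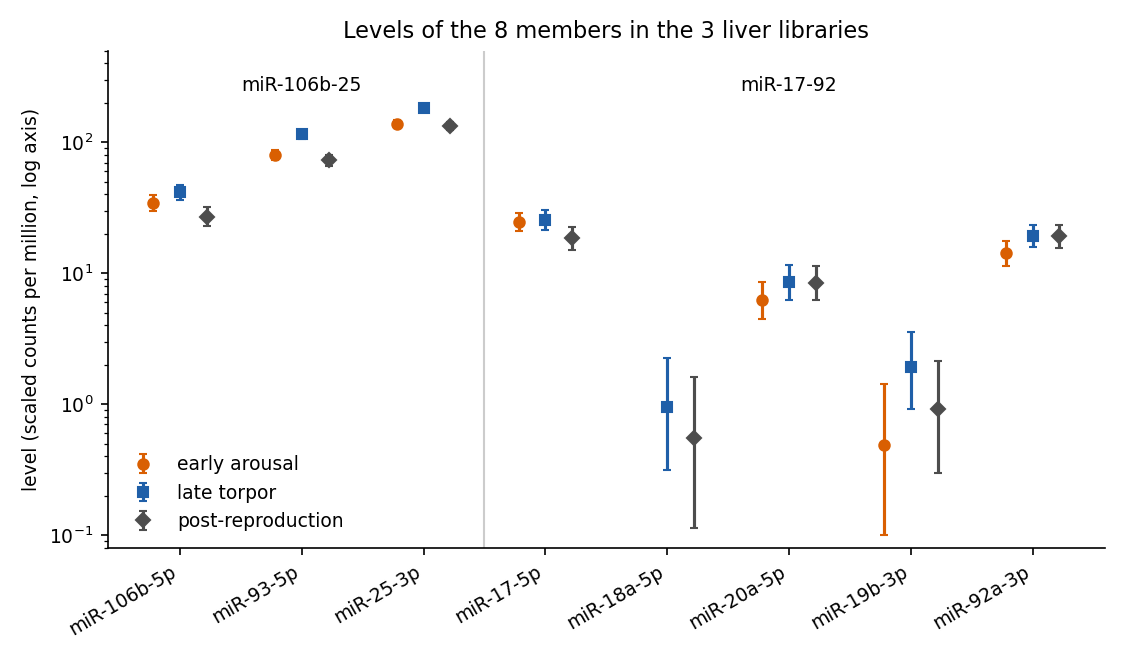
Level of each member (scaled CPM, log axis) in the early arousal, late torpor and post-reproduction libraries; bars are exact 95% Poisson intervals for counting error, and miR-18a-5p has no point in early arousal, where it had 0 reads. The 3 miR-106b-25 members lie between 27.1 and 183 CPM, above all miR-17-92 members of the same library, and each is highest in late torpor on this scaling; under plain scaling miR-106b-5p is slightly higher in early arousal than in late torpor.

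Setting late torpor against post-reproduction asks how torpid animals differ from summer animals. All 3 miR-106b-25 members were higher in late torpor, each with an interval above 1. The ratio was 1.58 for miR-93-5p (interval 1.39 to 1.80), 1.53 for miR-106b-5p (1.24 to 1.90) and 1.38 for miR-25-3p (1.25 to 1.52). The cluster sum gave 1.46 (1.36 to 1.57). Among the miR-17-92 members only miR-17-5p had an interval above 1, at 1.37 (1.05 to 1.80). miR-17-3p, the other arm of its hairpin and not a listed member, had a ratio of 1.497 (1.19 to 1.88). Its interval stayed above 1 under 9 of 10 alternative settings. The ratio was 1.02 for miR-20a-5p (0.661 to 1.57), 1.01 for miR-92a-3p (0.762 to 1.34) and 1.18 for the cluster sum (0.998 to 1.40). In these bulk samples more cells of a type and more RNA per cell cannot be told apart. The summed red-cell, leukocyte and endothelial miRNAs were highest in late torpor too, whereas the summed mesenchymal miRNAs were lowest there. Among the leukocyte miRNAs only miR-142-5p had an interval above 1. The ratio was 0.976 for miR-146a-5p and 0.894 for both miR-223-3p and miR-155-5p. The part of these cells in the result was not tested.

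Counts of members were read against all 523 read starts with at least 100 reads over these 2 libraries, the minimum set for calling a difference. Of the 8 members 5 passed it, miR-17-5p, miR-92a-3p and the 3 of miR-106b-25. Their interval lay above 1 for 4 and below 1 for none, where 29.8% of all starts lay above 1 and 39.0% below. At a limit of 1.5-fold 2 members were higher, miR-93-5p and miR-106b-5p, and none was lower, where 20.5% of all starts were higher and 29.4% lower. The median ratio was 1.38 over the 5 members and 0.970 over all starts. No member passed 1.5-fold under plain scaling to all starts or to all placed reads, with only reads identical to the printed forms, or with differences allowed in the last 3 bases only. The intervals of miR-93-5p and miR-25-3p stayed above 1 under 10 of 10 alternative settings and that of miR-106b-5p under 9, whereas that of miR-17-5p did so under 6.

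**Figure D3:**
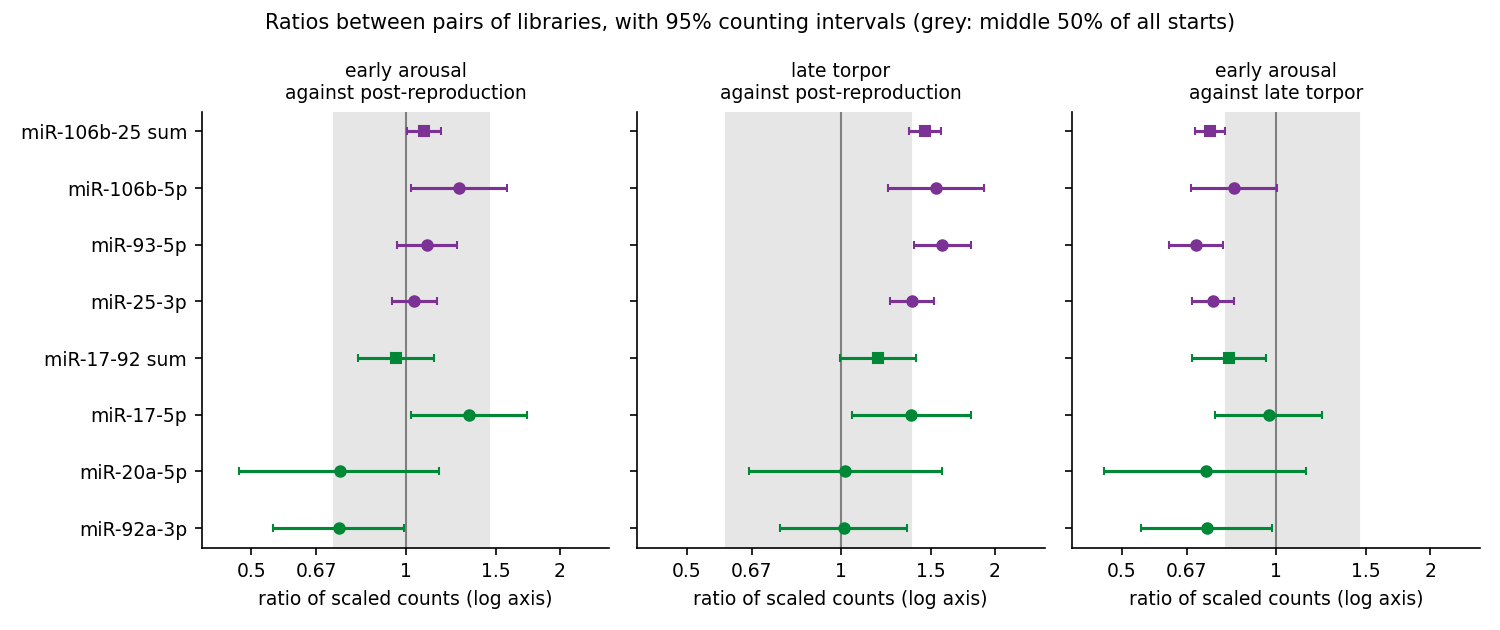
Ratio of scaled counts between pairs of libraries (horizontal axis, log scale) for the cluster sums (squares) and the members (circles), with miR-106b-25 in purple and miR-17-92 in green; bars are exact 95% intervals for counting error and the grey band holds the middle 50% of all read starts. In the late torpor against post-reproduction panel all 3 miR-106b-25 members lie between 1.38 and 1.58, while miR-20a-5p and miR-92a-3p lie at 1.02 and 1.01.

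Whether the clusters differed from each other was asked directly, from the ratio of their ratios, in which scaling cancels. From late torpor against post-reproduction this was 1.23 (interval 1.02 to 1.48), so miR-106b-25 was higher relative to miR-17-92 in late torpor by slightly more than counting error. The lower bound is close to 1. Both sums hold the listed members only, without the other arms. With reads placed at 1 position miR-17-5p was the only miR-17-92 member left. The log2 ratios of the miR-106b-25 and miR-17-92 sums were then 0.47 and 0.38. The shares of miR-106b-25 were 93.0% in late torpor and 92.6% in post-reproduction. The contrast thus rests on miR-17-92 reads that also match elsewhere. Between members with the miR-17 seed, miR-106b-5p and miR-93-5p against miR-17-5p and miR-20a-5p, it was 1.24 (0.964 to 1.60), an interval that held 1. Between members with the miR-92 seed, miR-25-3p against miR-92a-3p, it was 1.36 (1.01 to 1.84). miR-25-3p supplied 90.4% of the reads of that pair in late torpor (88.5 to 92.1) and 87.4% in post-reproduction (84.9 to 89.6).

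Setting early arousal against post-reproduction asks how arousing animals differ from summer animals, and it shares the post-reproduction library with the comparison above. Here the ratio of the clusters' ratios was 1.13 (0.939 to 1.37), an interval that held 1. The miR-106b-25 sum had a ratio of 1.09 (1.01 to 1.17), but its log2 ratio of 0.12 turned to -0.18 in the setting with reads placed at 1 position. That move was the shift of the scaling, -0.30, and not a loss of the cluster's own reads. The miR-17-92 sum had a ratio of 0.958 (0.806 to 1.14). Among the members the ratio was 1.27 for miR-106b-5p (1.02 to 1.58), 1.10 for miR-93-5p (0.964 to 1.26) and 1.04 for miR-25-3p (0.940 to 1.15).

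In this comparison miR-17-5p and miR-92a-3p, the first and the last member of miR-17-92, differed in direction, although the miR-92a-3p reads also match GeneScaffold 5834. The ratio was 1.33 for miR-17-5p (1.03 to 1.72) and 0.742 for miR-92a-3p (0.552 to 0.995), with miR-20a-5p at 0.743 (0.472 to 1.16). The ratio of miR-17-5p divided by that of miR-92a-3p was 1.79 (1.20 to 2.66), in which scaling cancels. miR-17-5p held 54.1% of the cluster's reads in early arousal (48.1 to 60.0), 45.2% in late torpor (39.5 to 51.1) and 39.0% in post-reproduction (33.0 to 45.2). Of the 5 members past the minimum, the interval lay above 1 for 2 (miR-17-5p and miR-106b-5p) and below 1 for 1 (miR-92a-3p), where 35.3% and 31.5% of 539 starts did so. No member was at least 1.5-fold higher or lower, against 23.7% and 21.5% of starts. Under median-of-ratios scaling none lay above 1, and under plain scaling 4 did and none lay below.

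Setting early arousal against late torpor stays within the hibernation season and counts no summer reads. The summer library still enters through scaling, because the scale factors were set against post-reproduction. Here miR-106b-25 was lower in early arousal, with a ratio of 0.744 (0.695 to 0.797) for the sum. The ratio was 0.698 for miR-93-5p (0.618 to 0.787) and 0.754 for miR-25-3p (0.687 to 0.828). For miR-106b-5p it was 0.829 (0.683 to 1.01), and plain scaling turned it to a log2 ratio of 0.053. The miR-17-92 sum had a ratio of 0.809 (0.685 to 0.956), but plain scaling turned its direction, to a log2 ratio of 0.018. Within that cluster the ratio was 0.733 for miR-92a-3p (0.544 to 0.985) and 0.967 for miR-17-5p (0.762 to 1.23). For miR-19b-3p the ratio was 0.252 (0.0446 to 0.980), from 3 against 10 reads.

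Of the 5 members past the minimum, the interval lay below 1 for 3 (miR-93-5p, miR-25-3p and miR-92a-3p) and above 1 for none, where 26.5% of 517 starts lay below and 33.7% above. None was at least 1.5-fold lower or higher, against 14.1% and 24.2% of starts. The ratio of the clusters' ratios was 0.920 (0.768 to 1.10), an interval that held 1. Under plain scaling only 1 member kept an interval below 1. The log2 ratio of the miR-106b-25 sum kept its sign under 12 of 12 alternatives, between -0.65 and -0.10.

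The other arm of each hairpin was counted in the same way, because both arms come from the same precursor. miR-25-5p (18875 to 18897), the less abundant arm of the miR-25 hairpin, showed a larger difference than its partner. It had 18.2 CPM in early arousal, 31.7 in late torpor and 12.1 in post-reproduction (113, 165 and 66 reads). The ratio was 2.61 (1.95 to 3.52) for late torpor against post-reproduction, 1.501 (1.10 to 2.07) for early arousal against post-reproduction and 0.576 (0.449 to 0.736) for early arousal against late torpor. These 3 intervals all excluded 1. The log2 ratio for late torpor against post-reproduction lay between 1.08 and 1.39 under 10 alternatives, while the interval for early arousal against post-reproduction excluded 1 under 7 of 10.
miR-25-5p: aGGCGGAGacttgggcaattgct

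As a share of the reads of both arms, miR-25-5p made up 11.7% in early arousal (9.72 to 13.9), 14.8% in late torpor (12.7 to 16.97) and 8.39% in post-reproduction (6.55 to 10.5). Relative to miR-25-3p it was 1.89 times as high in late torpor as in post-reproduction (1.39 to 2.60) and 1.44 times as high in early arousal as in post-reproduction (1.04 to 2.02). The late torpor and post-reproduction intervals of the share did not overlap.

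In the miR-106b hairpin the less abundant arm took the smallest share in late torpor. miR-106b-3p had 39, 25 and 36 reads in early arousal, late torpor and post-reproduction, or 15.5% (11.2 to 20.5), 10.4% (6.83 to 14.9) and 19.7% (14.2 to 26.2) of the reads of both arms. The late torpor and post-reproduction intervals overlapped slightly. For late torpor against post-reproduction the ratio of miR-106b-3p itself was 0.724 (0.417 to 1.24), an interval that held 1, and relative to miR-106b-5p it was 0.473 (0.261 to 0.849). From the third hairpin miR-93-3p had 0, 0 and 1 reads.
miR-106b-3p: cCGCACTGtgggtacttgctgc

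In miR-17-92 the 3′ arm of the first hairpin had more reads than the listed member, which is not a ratio of molecules. miR-17-3p (128633 to 128654) had 31.9 CPM in early arousal, 36.7 in late torpor and 24.5 in post-reproduction (198, 191 and 133 reads), or 56.4% (51.0 to 61.7), 59.0% (53.4 to 64.4) and 56.8% (50.2 to 63.3) of the reads of both arms. All 3 intervals lay above an equal split. Its ratio for late torpor against post-reproduction was 1.497 (1.19 to 1.88), beside 1.37 for miR-17-5p, but with only reads identical to the printed form its log2 ratio was 0.11 (-0.35 to 0.57), an interval that held 0. For early arousal against post-reproduction it was 1.31 (1.04 to 1.64), beside 1.33 for miR-17-5p, and the same restriction turned it to a log2 ratio of -0.10. Relative to miR-17-5p its ratio was 1.09 for late torpor against post-reproduction (0.764 to 1.55) and 0.983 for early arousal against post-reproduction (0.694 to 1.39), so no change in the use of the arms was detectable at this depth.
miR-17-3p: aCTGCAGTgaaggcacttgtag

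miR-92a-1-5p, the 5′ arm of the last miR-17-92 hairpin, had 30 reads in early arousal, 16 in late torpor and 14 in post-reproduction. Its ratios were 1.88 for early arousal against post-reproduction (0.966 to 3.83) and 1.58 for early arousal against late torpor (0.832 to 3.10), and both intervals held 1. Its reads matched this cluster only, whereas all miR-92a-3p reads also matched GeneScaffold 5834 and may come partly from a second hairpin, so a share of both is not a share of the arms of 1 hairpin. Of the reads of miR-92a-1-5p and miR-92a-3p together it made up 25.4% in early arousal (17.9 to 34.3), 13.7% in late torpor (8.02 to 21.3) and 11.9% in post-reproduction (6.64 to 19.1). Relative to miR-92a-3p its ratio was 2.52 (1.21 to 5.49) for early arousal against post-reproduction and 2.15 (1.05 to 4.51) for early arousal against late torpor. miR-20a-3p had 1, 0 and 3 reads and miR-18a-3p had 1, 0 and 0.
miR-92a-1-5p: aGGTTGGGatcggttgcaatgct

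**Figure D4:**
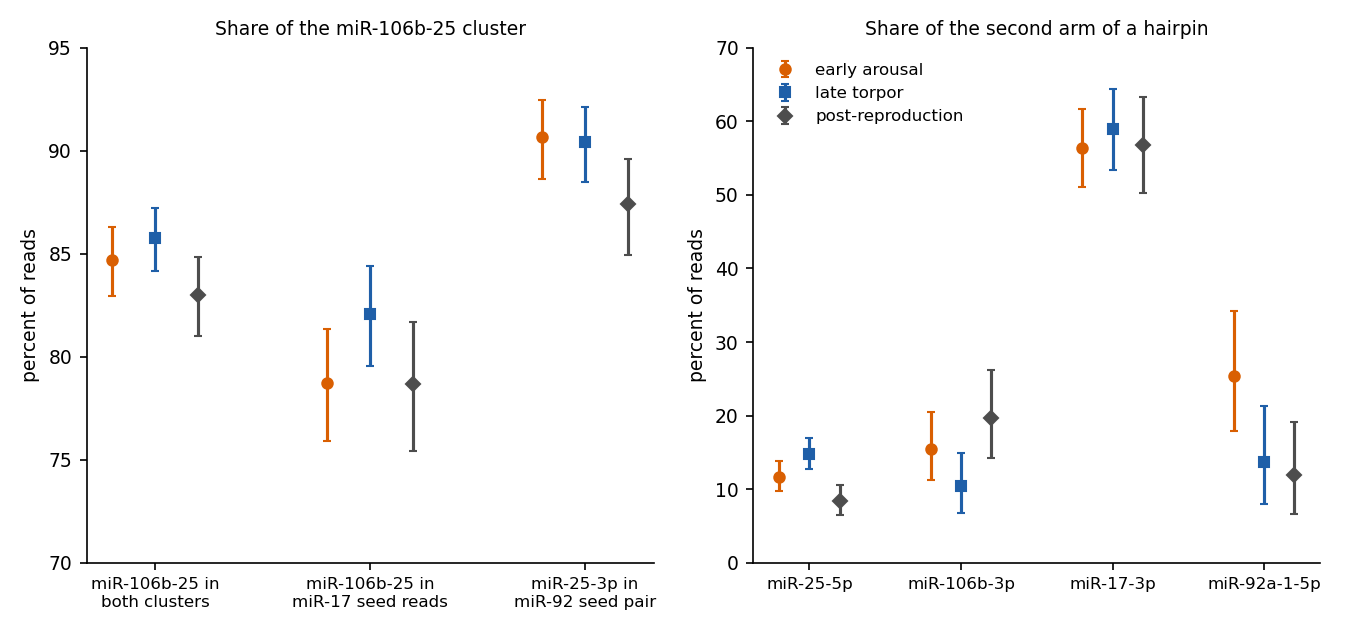
Left, percent of reads from miR-106b-25 among the listed members of both clusters, among the 4 members with the miR-17 seed, and of miR-25-3p in the pair with the miR-92 seed (axis from 70 to 95%). Right, percent of reads from the named arm among both arms of its hairpin (for miR-92a-1-5p the other arm's reads also match a second locus); bars are exact binomial 95% intervals for counting error, and miR-25-5p stands at 11.7%, 14.8% and 8.39% in early arousal, late torpor and post-reproduction.

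Most of the reads with the miR-17 seed came from miR-106b-25. Over the 4 members with that seed its share was 78.7% in early arousal (75.9 to 81.4), 82.1% in late torpor (79.6 to 84.4) and 78.7% in post-reproduction (75.4 to 81.7). The paralogous miR-106a-363 cluster added almost nothing to the family, since miR-20b-5p had 6, 2 and 1 reads and miR-106a-5p had 3, 4 and 0. With these included, the seed family stood at 147 CPM in early arousal, 192 in late torpor and 127 in post-reproduction, a ratio of 1.51 (1.37 to 1.67) for late torpor against post-reproduction. miR-93-5p was its most abundant member in every library.

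The miR-92 seed family also held miR-363-3p of the paralogous cluster with 142, 94 and 109 reads, miR-92b-3p with 114, 109 and 115 and miR-32-5p with 7, 10 and 7. miR-363-3p lay on the minus strand of GeneScaffold 5834 from 62136 to 62157. Unlike the miR-106b-25 members it had its lowest level in late torpor, with a ratio of 0.899 (0.675 to 1.20) against post-reproduction, and miR-92b-3p had one of 0.988 (0.753 to 1.30). Both intervals held 1. The whole family, miR-25-3p included, stood at 195 CPM in early arousal, 243 in late torpor and 194 in post-reproduction.

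Lengths and 3′ ends of the reads were compared because changes there would alter counts of identical reads. Among reads in which the adapter was found, miR-25-3p was 22 nt long in 83.9% in early arousal, 84.5% in late torpor and 82.2% in post-reproduction, and miR-93-5p was 23 nt long in 73.3%, 70.9% and 75.6%. The intervals of these shares overlapped. miR-106b-5p was more spread, with 25.96%, 29.7% and 38.0% of reads at 21 nt, 44.7%, 39.6% and 43.7% at 22 nt and 20.7%, 21.7% and 12.7% at 23 nt. Reads ending in bases that were not placed on the genome made up 35.1% (28.6 to 42.0), 36.3% (29.8 to 43.2) and 23.9% (17.2 to 31.8) of its reads. In miR-17-3p such ends made up 40.9% (33.6 to 48.4), 35.7% (28.8 to 43.1) and 20.5% (13.5 to 29.2), and in miR-25-3p 18.9%, 17.01% and 17.9%. The single added base was most often T in miR-25-3p, with 80, 72 and 70 reads, and A in miR-93-5p, with 46, 72 and 46. An added base and a sequencing mismatch near the end cannot be told apart in this table.

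Red-cell miRNAs were higher in late torpor than in post-reproduction, as miR-106b-25 was, but their sum was lower in early arousal than in post-reproduction. The red-cell miRNAs (miR-451a, miR-144-3p, miR-144-5p and miR-486-5p, all 4 detected in each library) summed to 821 reads in early arousal, 1724 in late torpor and 1015 in post-reproduction, or 132, 331 and 187 CPM. For late torpor against post-reproduction the ratio was 1.77 for the list (1.64 to 1.92), with its members between 1.36 (miR-486-5p) and 2.56 (miR-144-5p) and all 4 intervals above 1. For early arousal against post-reproduction it was 0.709 for the list (0.646 to 0.778), and the members ran from 0.455 for miR-486-5p (0.390 to 0.530) to 1.09 for miR-451a (0.947 to 1.26). The leukocyte list summed to 429, 596 and 411 reads, or 69.2, 114 and 75.6 CPM, of which miR-142-5p gave 336, 454 and 257. Of its 6 miRNAs 4 were detected in every library, and miR-142-3p (1, 1 and 0 reads) and miR-150-5p (0, 0 and 1) were at or near 0. For late torpor against post-reproduction miR-142-5p alone among these 4 had an interval above 1, with a ratio of 1.84 (1.58 to 2.15). The other ratios were 0.976 for miR-146a-5p (0.752 to 1.27) and 0.894 for both miR-223-3p and miR-155-5p (0.378 to 2.08). The endothelial pair, miR-126-3p and miR-126-5p, summed to 28.6, 38.4 and 28.5 CPM.

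Relative to the red-cell list, miR-106b-25 stood 1.53 times as high in early arousal as in post-reproduction (1.36 to 1.73) and 0.824 times as high in late torpor as in post-reproduction (0.740 to 0.917). Relative to the leukocyte list the values were 1.19 (1.01 to 1.39) and 0.965 (0.832 to 1.12). The red-cell members were not alike in early arousal against post-reproduction, so 1.53 holds for their sum only. miR-451a had a ratio of 1.09, beside 1.09 for the miR-106b-25 sum. The others had 0.531 (miR-144-3p), 0.893 (miR-144-5p) and 0.455 (miR-486-5p). The part of blood cells in the miR-106b-25 difference was not tested. The mesenchymal list, of which miR-199a-5p had 0 reads in all libraries, summed to 4004, 3561 and 4157 CPM. It went the other way in late torpor against post-reproduction, with a ratio of 0.856 (0.840 to 0.873).

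**Figure D5:**
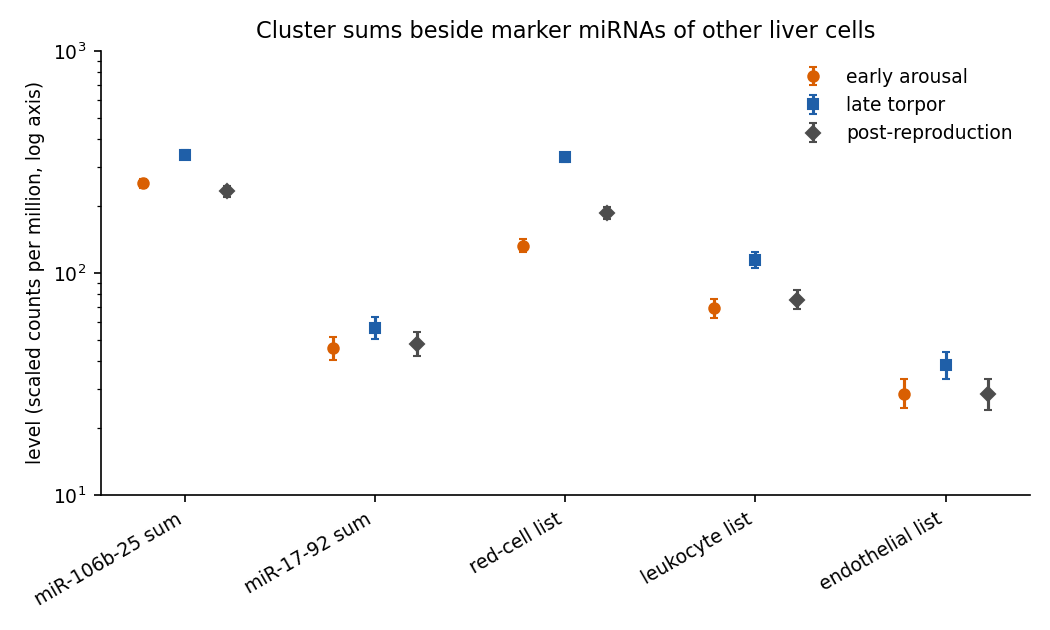
Summed level (scaled CPM, log axis) of the members of each cluster and of the red-cell, leukocyte and endothelial miRNA lists in the early arousal, late torpor and post-reproduction libraries, with exact 95% Poisson intervals for counting error. All 5 sums drawn are highest in late torpor on this scaling, where plain scaling puts miR-17-92 slightly higher in early arousal. The mesenchymal list, not drawn, was lowest in late torpor. The red-cell list stands at 132, 331 and 187 CPM and the miR-106b-25 sum at 253, 340 and 233 CPM.

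The nearest patterns among 180 other read starts with at least 100 reads in each library were sought by the largest difference between centred log2 levels over the 3 libraries. For the miR-17-92 sum the closest start carried the known sequence of let-7f-5p, an abundant liver miRNA, at 0.01, with 606515, 624318 and 550101 reads. The second was within 2 mismatches of a start at least 10 times as abundant and is not named, and the third carried that of miR-26a-5p at 0.04, with 13437, 13423 and 11726 reads. For the miR-106b-25 sum the 3 closest starts lay at 0.02, 0.06 and 0.07 and are left unnamed. The first differed from let-7f-5p read from base 2 only by changes of T to G. Whether it is a copy of let-7f-5p was not tested. The second was miR-122-5p read from base 3. With 3 libraries such likeness is a description only.
let-7f-5p: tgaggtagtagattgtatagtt
miR-26a-5p: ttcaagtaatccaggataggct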

How the data were processed

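The authors deposited 1 table in which, per the file headers, a genome position lists the reads placed there, written as text with a whole-number read count and a stage; the count is repeated at each position of a read. Reads are 30 bases long, with the placed part (at least 18 bases) in capitals. Per the labels' protocols, RNA of 18 to 30 nt was cut from a gel, ligated and amplified by PCR, with no mention of molecular identifiers. The sources used here do not name an aligner, genome build or filter.

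No miRNA table was used. Names were given from the first 8 bases known for each mammalian miRNA, with scaffold and strand for cluster members and a short second key for others, not checked against a database; the printed form is the most abundant insert after removal of the adapter (up to 1 mismatch in 5 bases, inserts of 18 to 26 nt). Features were 18-base starts with at least 10 reads and no start 10 times as abundant within 1 mismatch. They include copies and other small RNAs. Trimmed mean of M-values factors (30% on ratio, 5% on abundance) were coded in Python 3.11.15 with numpy 2.4.6; exact conditional binomial, Poisson and binomial 95% intervals came from scipy 1.17.1 and figures from matplotlib 3.10.9. The code was tested on simulated data. A call needed 100 reads over both libraries and 1.5-fold. The members, the other arms, seed relatives, marker lists and the likeness rule (the 3 nearest starts with forms of 20 to 24 nt) were chosen with earlier results of these data known. miR-192-5p was left out of the hepatocyte list because no start was matched. The minimum, scaling and the definition of a member's reads were varied.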

Additional observations from a re-analysis of the deposited data

How the results depend on the processing

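No paired analysis was possible because each stage is 1 library. The setting called stricter starts below was chosen after seeing the data. Plain scaling shifted all log2 ratios by 0.20 for early arousal against post-reproduction, -0.13 for late torpor against post-reproduction and 0.32 for early arousal against late torpor. Scaling to all placed reads shifted them by 0.19, -0.12 and 0.31, and stricter starts by 0.17, 0.00 and 0.16. With reads placed at 1 position the scaling alone shifted them by -0.30, -0.07 and -0.23, and the miR-106b-25 sum moved by these amounts only. In the same order of comparisons, the log2 ratio of the miR-106b-25 sum was 0.32, 0.42 and -0.10 under plain scaling and 0.31, 0.42 and -0.11 with all placed reads. With stricter starts it was 0.29 for early arousal against post-reproduction and -0.26 for early arousal against late torpor, and with reads placed at 1 position -0.18 and -0.65. For early arousal against late torpor it was -0.30 with identical reads and -0.31 with differences in the last 3 bases only, and that setting gave 0.44 for late torpor against post-reproduction. The log2 ratio of the miR-17-92 sum for early arousal against late torpor turned to 0.018 under plain scaling and 0.0076 with all placed reads, and without the most abundant member it was -0.56, with -0.47 for early arousal against post-reproduction. That of miR-17-3p for early arousal against post-reproduction turned to -0.10 with identical reads, which also gave 0.11 for late torpor against post-reproduction, with an interval that held 0. The cause was not tested, beyond the scaling shifts themselves. The share of miR-106b-25 was 88.5%, 88.9% and 85.7% in early arousal, late torpor and post-reproduction with identical reads and 91.1%, 93.0% and 92.6% with reads placed at 1 position, where miR-18a-5p, miR-19b-3p, miR-20a-5p and miR-92a-3p had no reads left and gave no value.

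For early arousal against post-reproduction, the count of members with an interval above 1 was 2, and it was 4 under plain scaling, all placed reads or stricter starts and 0 under median-of-ratios scaling, shifted starts, reads placed at 1 position or differences in the last 3 bases only. The count below 1 was 0 in place of 1 under plain scaling, all placed reads, identical reads or stricter starts, and 1 member rather than 0 was at least 1.5-fold higher under plain scaling, all placed reads or identical reads. For late torpor against post-reproduction, 2 members in place of 4 had an interval above 1 with identical reads; the count at least 1.5-fold higher was 0 under plain scaling, all placed reads, identical reads or differences in the last 3 bases only and 1 with shifted starts or reads placed at 1 position. For early arousal against late torpor, the count below 1 was 1 in place of 3 under plain scaling or all placed reads, and the count at least 1.5-fold lower was 1 with shifted starts and 2 with reads placed at 1 position.

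Counts over all starts at least 1.5-fold higher and lower were 128 and 116 for early arousal against post-reproduction, 107 and 154 for late torpor against post-reproduction, and 125 and 73 for early arousal against late torpor. In that order they were 48 and 45, 41 and 44, and 40 and 29 with identical reads; 58 and 41, 46 and 48, and 52 and 21 with a minimum of 300 reads; and 1198 and 1230, 1191 and 1306, and 1214 and 1057 with no minimum beyond 1 read in each library. With stricter starts they were 62 and 62, 44 and 73, and 49 and 33. With reads placed at 1 position they were 45 and 77, and 52 and 73, with 46 higher for early arousal against late torpor. With differences in the last 3 bases only they were 68 and 93 for late torpor against post-reproduction, with 71 higher for early arousal against late torpor. Shifted starts gave 84 higher for early arousal against post-reproduction. For early arousal against late torpor 188 were higher and 42 lower under plain scaling, and 42 lower with all placed reads.

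Among 72 alternative values of the cluster sums 55 lay within the counting interval of the reported value. Another 14 lay outside it, and 3 turned the direction of a sum whose interval excluded 1. The alternatives reuse the same reads, so that interval does not measure how far a change of setting moves a value. With 1 pooled library a stage, the spread between animals is unknown, and members with fewer than 100 reads have intervals too wide to place a 1.5-fold difference.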
